A study of Mus musculus with 16 samples.

Results

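Transcripts of 8 mouse genes of the fatty acid elongase and desaturase families were followed across 16 libraries of polyadenylated liver RNA. These genes were the elongases Elovl1, Elovl2 and Elovl5, the Fads family members Fads1, Fads2, Fads3 and Fads6, and the stearoyl-CoA desaturase Scd2. The genes were chosen by symbol, which matched 8 of the 55487 rows of the deposited tables, and all 8 passed the low-count filter that left 13905 genes to test. The livers came from mice fed a high-fat diet (HFD) and carrying changes in c-Jun N-terminal kinase (JNK) splicing that the series describes as specific to hepatocytes. All 16 libraries share the strain C57/Bl6J and the genotype J1 J2 lf/lf. The GFP group (n = 5) is the control, the Cre group (n = 5) is labelled as the 7a form, and the Flpo group (n = 6) as the 7b form; 7a and 7b name alternative exons of the JNK transcripts. The labels give no age, no length of feeding and no route by which GFP, Cre or Flpo was delivered, and the control carries the same genotype label as the other groups. The labels also do not say that each library is a separate mouse, and p-values therefore refer to library-to-library spread alone.

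Mammals make long polyunsaturated fatty acids from the dietary precursors linoleic and alpha-linolenic acid by alternating desaturation and elongation in the endoplasmic reticulum, most actively in the liver. FADS2 opens the pathway as the delta-6 desaturase, ELOVL5 lengthens its products, FADS1 acts next as the delta-5 desaturase that yields arachidonic and eicosapentaenoic acid, and ELOVL2 lengthens the longer intermediates on the way to docosahexaenoic acid. The other genes lie beside that chain: ELOVL1 extends saturated and monounsaturated very long chains used in sphingolipids, FADS3 desaturates sphingoid bases of ceramides, and SCD2 makes monounsaturated fatty acids, as does SCD1, the main liver isoform. By textbook role, Fads2, Elovl5, Fads1 and Elovl2 are therefore the genes of the 8 that form the polyunsaturated chain itself.

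In mouse build GRCm38, on GENCODE M21 gene models, Fads3 (chr19:10041569-10060110, plus strand), Fads2 (chr19:10062765-10101746, minus strand) and Fads1 (chr19:10182888-10196877, plus strand) lie side by side on chromosome 19. The ends of Fads3 and Fads2 are 2654 bases apart, and 81141 bases separate Fads2 from Fads1. Scd2 (chr19:44293674-44306864, plus strand) lies on the same chromosome. Elovl1 (chr4:118428093-118432953, plus strand), Elovl5 (chr9:77917364-77984519, plus strand), Fads6 (chr11:115279622-115297663, minus strand) and Elovl2 (chr13:41182381-41220405, minus strand) are on separate chromosomes. All 8 are annotated as protein-coding.

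The RefSeq promoter table (build GRCm38.p6, 250 bases before to 50 after a gene's start) held 8 promoters for 6 of the 8 genes; Fads1 and Scd2 had no entry. The promoters of the 4 genes that were higher in Cre livers are printed because those genes share a direction in that comparison (for Elovl2, the upstream of 2 entries), each 5′ to 3′ on the gene's own strand with motif matches in capitals.
Elovl2 (chr13:41220354-41220653, minus strand): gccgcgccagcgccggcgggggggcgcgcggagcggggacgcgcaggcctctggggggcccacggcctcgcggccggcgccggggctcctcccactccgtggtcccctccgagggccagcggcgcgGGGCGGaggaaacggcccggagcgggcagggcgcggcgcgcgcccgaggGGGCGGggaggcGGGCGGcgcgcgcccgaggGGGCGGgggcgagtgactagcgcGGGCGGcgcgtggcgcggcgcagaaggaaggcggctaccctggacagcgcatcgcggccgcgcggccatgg
Elovl5 (chr9:77917115-77917414, plus strand): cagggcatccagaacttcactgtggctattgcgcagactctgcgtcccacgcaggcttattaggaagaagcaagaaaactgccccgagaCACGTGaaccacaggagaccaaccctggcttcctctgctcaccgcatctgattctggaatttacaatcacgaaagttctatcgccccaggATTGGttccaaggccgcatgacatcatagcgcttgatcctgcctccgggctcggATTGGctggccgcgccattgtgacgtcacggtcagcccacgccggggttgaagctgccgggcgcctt
Fads2 (chr19:10101454-10101753, minus strand): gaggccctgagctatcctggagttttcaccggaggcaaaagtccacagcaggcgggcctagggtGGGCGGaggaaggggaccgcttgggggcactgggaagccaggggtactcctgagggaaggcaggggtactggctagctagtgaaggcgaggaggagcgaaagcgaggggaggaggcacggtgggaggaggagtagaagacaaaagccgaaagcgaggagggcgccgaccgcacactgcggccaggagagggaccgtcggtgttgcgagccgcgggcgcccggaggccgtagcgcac
Fads3 (chr19:10041298-10041597, plus strand): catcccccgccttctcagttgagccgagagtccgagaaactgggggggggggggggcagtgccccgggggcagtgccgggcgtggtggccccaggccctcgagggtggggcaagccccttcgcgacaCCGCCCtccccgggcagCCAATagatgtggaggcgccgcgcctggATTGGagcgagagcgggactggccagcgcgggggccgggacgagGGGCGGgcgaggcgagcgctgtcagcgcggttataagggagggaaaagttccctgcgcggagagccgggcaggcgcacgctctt
The motifs searched on both strands were the GC box GGGCGG, the CCAAT box CCAAT, the E-box CACGTG, the D-box TTATGTAA, the STAT5 element TTCNNNGAA and the sterol element TCACNCCAC. Elovl2's printed promoter, with 84.7% G or C, held 5 GC boxes and no other match. The other Elovl2 entry, which starts at base 41220113, held no match to any of these motifs. The Elovl5 promoter held 2 CCAAT boxes, read as ATTGG, and the E-box. A single GC box was found for Fads2, and Fads3 had 2 GC boxes and 2 CCAAT boxes. The Fads2 window (chr19:10101454-10101753) lies almost wholly inside the GENCODE model of the gene, whose minus-strand start is at base 10101746. Bases further upstream of that start were not searched. No motif was shared by all 4 promoters, and none of the 4 held a D-box, STAT5 or sterol match in these windows. Among 32851 promoters of the same length, 35.7% held the GC box, 37.4% the CCAAT box, 7.15% the E-box, 0.938% the D-box, 8.30% the STAT5 element and 1.24% the sterol element.

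Library totals ran from 27929393 to 36043322 estimated counts. All 35 pairs of libraries within a group differed by more than sampling noise, so no library was counted as a duplicate. Hepatocyte markers such as Alb, Apoa1 and Ttr summed to 69809 to 80656 TPM (the deposited length-scaled transcript abundance) in GFP. The sums were 62945 to 89375 in Cre and 64867 to 77509 in Flpo, with none of the 9 at 0 in any library. Of the 9, 1 was called higher and 1 lower in Cre than in GFP, and 2 were lower in Flpo than in Cre. Counts per gene do not separate the 7a and 7b exons, so the group labels could not be checked on the JNK genes themselves. The numbers in the sample titles run in blocks by group, so a harvest or processing batch and the group cannot be told apart.

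The comparison of Cre with GFP livers asks how transcript levels differ between livers labelled as the 7a form and the control. The 7a label goes with Cre alone and the 7b label with Flpo alone. A difference due to the form and one due to Cre or Flpo itself therefore cannot be told apart. Elovl2, Elovl5, Fads2 and Fads3 were higher in Cre livers by 1.60 to 2.51 times in mean CPM (counts scaled to library size, with library totals adjusted by TMM factors). Fads6 was lower, at 0.804 times the GFP mean. The counts for Fads1, Elovl1 and Scd2 did not pass the test. In all, 5 of the 8 genes passed an adjusted p of 0.05 (4 higher, 1 lower), in a comparison that called 9.55% of the 13905 genes tested, 3.97% higher and 5.58% lower (edgeR's quasi-likelihood test, Benjamini-Hochberg adjustment over all genes tested). The Cre and GFP libraries did not overlap for 4 of the 8, the 4 higher genes, where 8.20% of all genes tested did not overlap. The median log2 fold change was 0.41 over the 8 genes and 0.00 over all genes tested. In bulk liver RNA, fewer cells of a type and less RNA per cell cannot be told apart.

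Of the 3 elongases among the 8 genes, Elovl2 had the largest fold change. Its abundance was 359.6, 388, 239.5, 347 and 276 CPM in the 5 GFP libraries and 769.9, 756, 608, 1055 and 854 CPM in the 5 Cre libraries. The lowest Cre library therefore stood well above the highest GFP library. The group means were 322 ± 62.0 and 808 ± 164 CPM (SD, n = 5 each), and the log2 fold change was 1.33 (SE 0.16, edgeR adjusted p = 4.9e-05). That call held in all 27 alternative analyses, between 1.13 and 1.42 on the log2 scale.

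Elovl5, the elongase that follows the delta-6 step, showed the same separation of groups with a smaller difference. GFP libraries had 615, 606, 347, 481 and 327 CPM and Cre libraries 826, 834, 646, 934 and 1100.1 CPM. All 5 Cre values lay above all 5 GFP values, although Cre 3 exceeded GFP 1 by little. With means of 475 ± 137 and 868 ± 166 CPM (SD, n = 5 each), the log2 fold change was 0.87 (SE 0.21, edgeR adjusted p = 0.0145). Elovl1 was close to level, with GFP libraries between 28.2 and 30.7 CPM and Cre libraries between 24.4 and 32.7 CPM around them. Its log2 fold change was -0.04 (SE 0.13, edgeR adjusted p = 0.883), a 95% interval of -0.31 to 0.22.

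**Figure D1:**
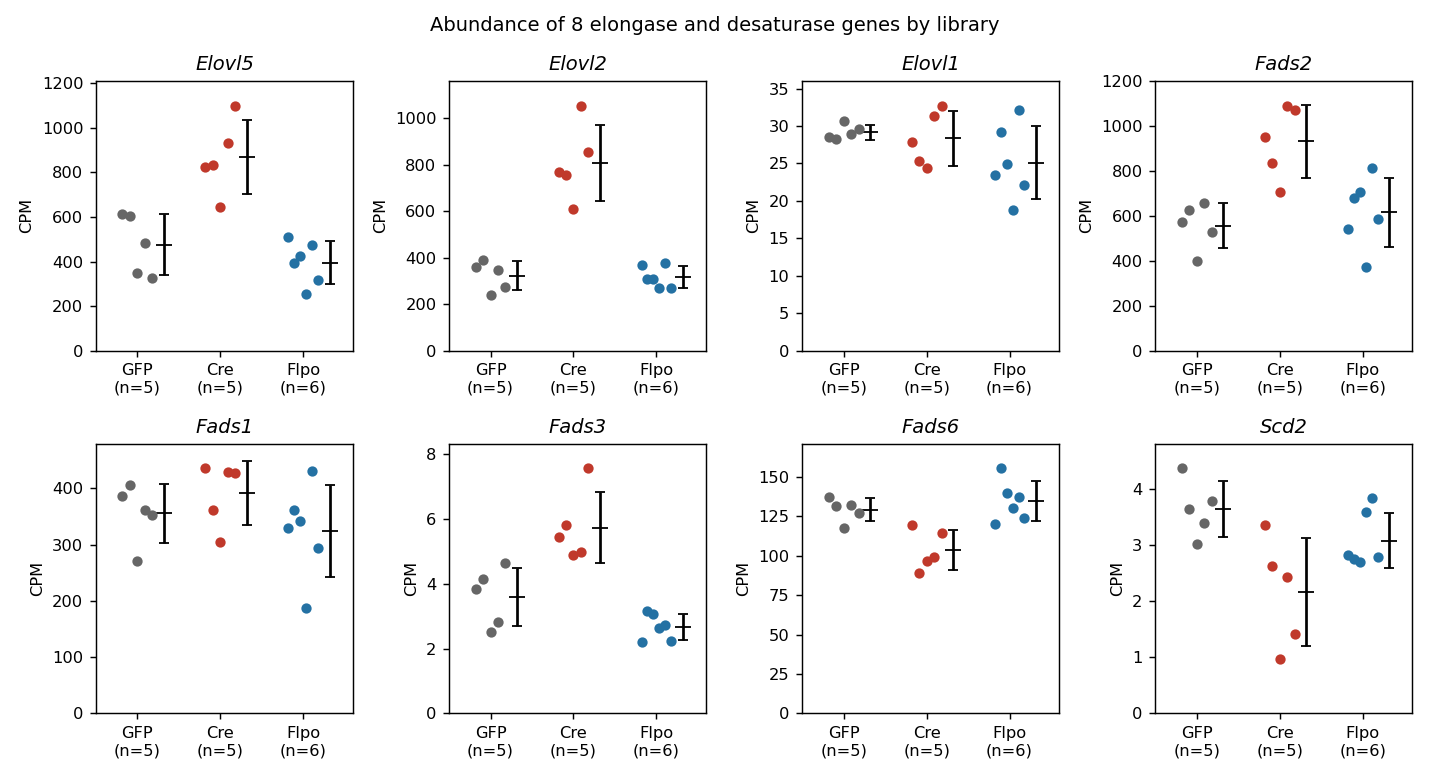
Abundance in CPM (vertical axes, each from 0) of the 8 genes in every library of the GFP (n = 5), Cre (n = 5) and Flpo (n = 6) groups; points are libraries and the bar beside each group is the mean with its SD. Cre points of Elovl2, Elovl5, Fads2 and Fads3 all lie above the GFP points, while Fads1 and Elovl1 overlap between groups.

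Fads2, the delta-6 desaturase, was higher in Cre livers, whereas Fads1, the delta-5 desaturase, was not called. Fads2 abundance was 571, 628, 400.0, 658 and 528 CPM in GFP and 952, 837, 708, 1092 and 1074 CPM in Cre libraries. No Cre library fell within the GFP range. The means were 557 ± 101 and 933 ± 163 CPM (SD, n = 5 each), with a log2 fold change of 0.74 (SE 0.18, edgeR adjusted p = 0.016). On the log2(TPM + 1) scale it was 0.56 and did not pass (limma, adjusted p = 0.0781).

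Fads1 stood at 387, 407, 270.1, 362 and 352 CPM in GFP and at 436, 362, 304, 429 and 428 CPM in Cre libraries. The groups overlapped over most of their range, and Cre 3, with the lowest Fads1 of its group, was also the lowest Cre library for Fads2, Elovl2, Elovl5 and Fads3. Fads1 had a log2 fold change of 0.14 (SE 0.17, edgeR adjusted p = 0.67), a 95% interval of -0.22 to 0.50, and its sign was negative when scaled to library totals alone (-0.00) or as log2(TPM + 1) (-0.04).

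Fads3, the sphingoid base desaturase, was scarce in every library and higher in Cre livers. GFP libraries held 3.83, 4.16, 2.51, 2.83 and 4.64 CPM and Cre libraries 5.44, 5.82, 4.89, 4.99 and 7.57 CPM. The lowest Cre library, Cre 3, was just above the highest GFP library, GFP 5. The log2 fold change was 0.67 (SE 0.19, edgeR adjusted p = 0.0342). That call was among the least steady: its adjusted p rose above 0.05 in 11 of 27 alternatives, among them leaving out GFP 1 (0.71, edgeR adjusted p = 0.0502), GFP 3 (0.57, edgeR adjusted p = 0.0772), GFP 4 (0.61, edgeR adjusted p = 0.0753), Cre 2 (0.67, edgeR adjusted p = 0.061) or Cre 5 (0.56, edgeR adjusted p = 0.0911).

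Fads6 went the other way. Its abundance was 137, 132, 117, 132 and 127 CPM in GFP and 119, 89.0, 96.8, 99.5 and 115 CPM in Cre libraries. Below the lowest GFP library lay 4 of the 5 Cre libraries, with Cre 1 inside the GFP range. The log2 fold change was -0.31 (SE 0.09, edgeR adjusted p = 0.0386), and the call was lost in 15 of 27 alternatives, including the omission of any of GFP 1, GFP 2, GFP 4, GFP 5, Cre 2, Cre 3, Cre 4, Flpo 3, Flpo 4, Flpo 5 or Flpo 6 (edgeR adjusted p from 0.0577 to 0.106).

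Scd2, in contrast to the abundant Scd1, was near the lower limit of what was tested, at 4.37, 3.65, 3.03, 3.39 and 3.79 CPM in GFP and 3.36, 2.62, 0.970, 2.44 and 1.41 CPM in Cre libraries. Scd1 and Scd2 are paralogs, and Scd2 counts are uncertain where reads were shared between them. Again 4 of the 5 Cre values lay below the lowest GFP value, and the Cre values varied over a wide range. The log2 fold change of -0.75 (SE 0.26, edgeR adjusted p = 0.0794) did not pass the threshold in the full fit. It passed in 6 of 27 alternatives, among them DESeq2 (adjusted p = 0.0377), limma-voom (adjusted p = 0.0445) and the fit without Cre 1 (-0.96, edgeR adjusted p = 0.0288).

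Levels of different genes were compared per transcript length, as deposited TPM. In GFP livers the order of mean levels was Fads2 (236 ± 52.6 TPM), Elovl5 (226 ± 74.1), Fads1 (130.4 ± 23.98), Elovl2 (106 ± 24.9), Elovl1 (32.2 ± 1.18), Fads6 (32.1 ± 3.50), Fads3 (1.40 ± 0.345) and Scd2 (0.813 ± 0.140; SD, n = 5). Fads2 and Elovl5 did not differ beyond their spread, with Elovl5 above Fads2 in 2 of 5 GFP, 3 of 5 Cre and 1 of 6 Flpo libraries. Elovl1 and Fads6 were likewise neighbours within their spread. In Cre livers the mean levels were 363 ± 87.3 TPM for Elovl5, 349.7 ± 87.4 for Fads2, 237 ± 70.9 for Elovl2 and 127 ± 27.1 for Fads1 (SD, n = 5). Elovl2 thus changed places with Fads1: it was above Fads1 in 0 of 5 GFP libraries, 5 of 5 Cre libraries and 2 of 6 Flpo libraries, an order noticed after the values were seen and not tested.

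The 8 genes together summed to 537 to 906 TPM in GFP, 763 to 1485 in Cre and 521 to 939.6 in Flpo livers, ranges that overlapped. Within those sums Elovl2 took 13.7 to 14.3% in GFP and 19.0 to 23.6% in Cre libraries, with no overlap, and 12.9 to 18.1% in Flpo libraries. The share of Fads1 was 16.2 to 19.4% in GFP, 10.6 to 12.6% in Cre and 14.0 to 17.2% in Flpo, again with Cre apart from the other groups. Fads6 held 3.66 to 5.07%, 1.68 to 2.49% and 3.70 to 6.63% in the same order of groups, and Fads2 28.1 to 34.0%, 29.9 to 31.7% and 29.7 to 38.2%. Shares of 1 sum depend on each other, and they are given as a description.

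**Figure D2:**
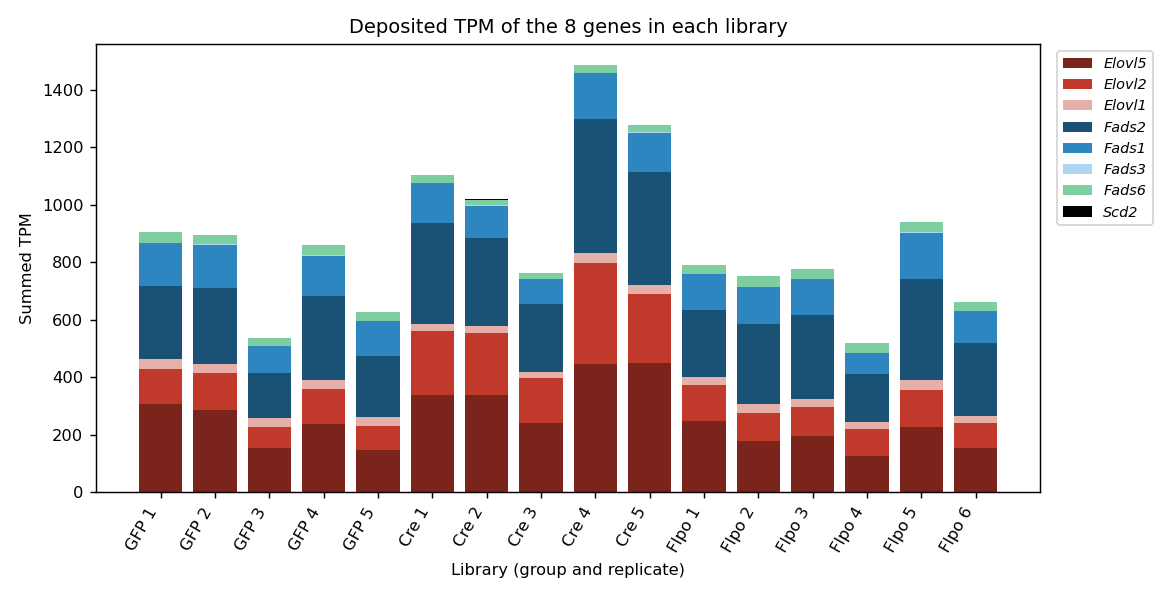
Deposited TPM of the 8 genes stacked for each of the 16 libraries (horizontal axis, group and replicate), from 0 on the vertical axis. Elovl2 forms 19.0 to 23.6% of the stack in Cre libraries and 13.7 to 14.3% in GFP libraries.

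Because Fads2 and Fads1 act in turn on the same chain, their TPM ratio was taken within each library. The ratio was 1.70, 1.78, 1.71, 2.10 and 1.73 in GFP libraries and 2.52, 2.67, 2.68, 2.93 and 2.89 in Cre libraries. Flpo libraries ranged from 1.89 to 2.38 with a median of 2.24. All Cre ratios lay above all GFP and all Flpo ratios, and Flpo libraries lay between, overlapping GFP through GFP 4. Group means were 1.80 ± 0.167, 2.74 ± 0.171 and 2.20 ± 0.172 (SD; n = 5, 5 and 6).

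In log2 units the mean ratio was 0.60 higher in Cre than in GFP (exact two-sided permutation p = 0.00794, adjusted 0.0325 over 9 ratio tests). It was 0.29 higher in Flpo than in GFP (exact permutation p = 0.0108, adjusted 0.0325), and the Flpo minus Cre difference was -0.32 (exact permutation p = 0.00216, adjusted 0.0195). The smallest p possible is 0.00794 for 5 against 5 libraries and 0.00216 for 6 against 5. These 3 differences stayed past the threshold without any single library.

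The ratio of the elongases Elovl5 and Elovl2 was 2.09 ± 0.281 in GFP, 1.55 ± 0.206 in Cre and 1.77 ± 0.233 in Flpo livers (SD). Cre minus GFP was -0.43 in log2 units (exact permutation p = 0.0159, adjusted 0.0357), and that call was lost without Cre 1 or Cre 2 (adjusted p = 0.0536 each by the exact permutation test) and without Cre 4 (0.0571). Flpo minus GFP was -0.24 (exact permutation, adjusted p = 0.112; -0.31, adjusted p = 0.0286, without GFP 5) and Flpo minus Cre 0.19 (adjusted p = 0.166).

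Scd2 formed a very small part of the stearoyl-CoA desaturase transcripts, with mean TPM ratios to Scd1 of 0.00102 in GFP, 0.00241 in Cre and 0.000858 in Flpo livers. The Cre minus GFP difference of 1.09 log2 units did not pass (exact permutation, adjusted p = 0.112). Flpo minus Cre was -1.32 (exact permutation p = 0.026, adjusted 0.0468), a call lost without Cre 1, Cre 2, Cre 5 or any of the 6 Flpo libraries (adjusted p from 0.0714 to 0.131). Flpo minus GFP was -0.23 (exact permutation, adjusted p = 0.502).

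**Figure D3:**
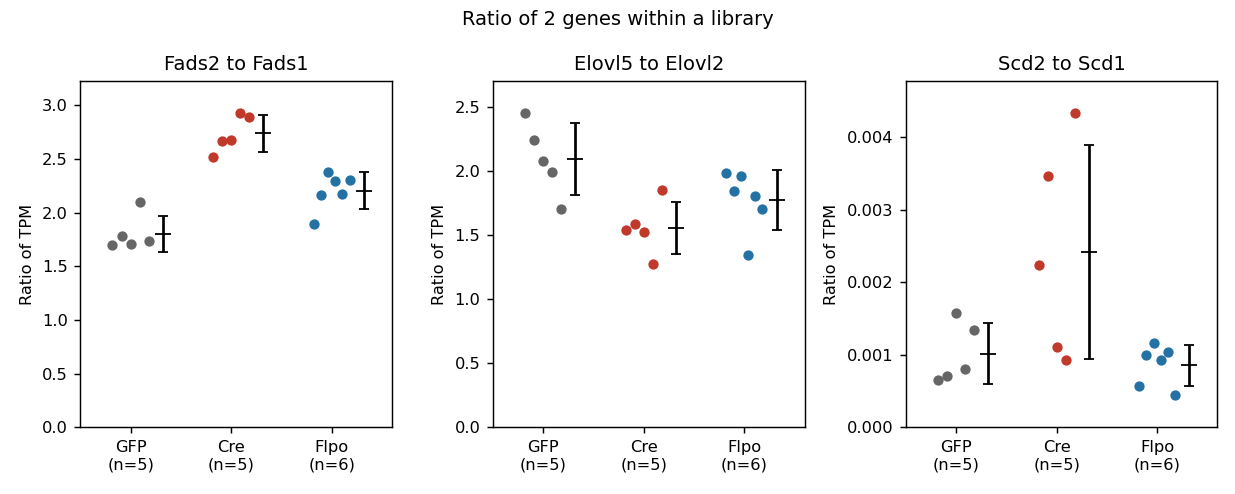
Ratio of the TPM of 2 genes within a library (vertical axes from 0) for Fads2 to Fads1, Elovl5 to Elovl2 and Scd2 to Scd1 in the GFP, Cre and Flpo groups; points are libraries and bars give the mean with its SD. The Fads2 to Fads1 ratio has group means of 1.80, 2.74 and 2.20, with every Cre point above the others.

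Flpo livers, labelled as the 7b form, were compared with the same GFP libraries, so this comparison shares its control with the previous one. No gene of the 8 passed edgeR's test (0 of 8 called, where 0.0288% of all genes tested were, 4 genes), and 1 of 8 had an unadjusted p below 0.05, namely Fads3, where 9.73% of all genes tested did. DESeq2 and limma-voom called 0 of the 8 as well. Flpo overlapped GFP for all 8 genes, against a background in which 1.55% of genes tested did not overlap. Elovl2 in Flpo livers ranged from 268 to 378 CPM with a median of 308, and its log2 fold change was -0.02 (SE 0.15, edgeR adjusted p = 0.973), a 95% interval of -0.33 to 0.28. Fads3 ranged from 2.20 to 3.16 CPM with a median of 2.67, all 6 below the GFP median of 3.83 CPM, with a log2 fold change of -0.43 (SE 0.19, edgeR adjusted p = 0.47), a 95% interval of -0.82 to -0.04. Elovl1 ranged from 18.8 to 32.1 CPM with a median of 24.1, Fads1 ranged from 187 to 431 CPM with a median of 336, and Scd2 ranged from 2.71 to 3.83 CPM with a median of 2.81, each range overlapping that of GFP. The 6 genes other than Elovl2 and Fads3 had log2 fold changes from -0.26 (Elovl5, SE 0.20) to 0.15 (Fads2, SE 0.17), and the median of the 8 was -0.18.

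Set directly against Cre livers, Flpo livers had lower Elovl2, Elovl5, Fads2 and Fads3 and higher Fads6. This made 5 of 8 genes called (1 higher, 4 lower) where 13.7% of all genes tested were called, 7.45% higher and 6.26% lower (edgeR). The groups did not overlap for Elovl2, Elovl5, Fads3 and Fads6 (4 of 8, against 7.84% of all genes tested).

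Elovl2 was -1.35 (SE 0.15, edgeR adjusted p = 1.97e-05) on the log2 scale in Flpo relative to Cre, and the highest Flpo library (378 CPM) was well under the lowest Cre library (608 CPM). For Elovl5, Flpo libraries ranged from 253 to 511 CPM with a median of 409, all below the Cre libraries, and the log2 fold change was -1.13 (SE 0.20, edgeR adjusted p = 0.00121). Fads3 had -1.10 (SE 0.18, edgeR adjusted p = 0.00079). These genes were called in 27, 26 and 26 of 27 alternatives.

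Fads2 in Flpo livers ranged from 372 to 814 CPM with a median of 635. Flpo 5 reached into the Cre range and the other 5 Flpo libraries were below it. The log2 fold change was -0.60 (SE 0.17, edgeR adjusted p = 0.0293), lost in 9 of 27 alternatives, among them without Cre 1 (-0.60, edgeR adjusted p = 0.0502), Cre 4 (-0.53, edgeR adjusted p = 0.0597), Cre 5 (-0.54, edgeR adjusted p = 0.068) or Flpo 6 (-0.60, edgeR adjusted p = 0.0521). Fads6 ranged from 120.4 to 155 CPM with a median of 134, with every Flpo library above every Cre library, and its log2 fold change was 0.37 (SE 0.09, edgeR adjusted p = 0.00908). Fads1, Elovl1 and Scd2 were not called, at -0.27 (SE 0.16, edgeR adjusted p = 0.309), -0.18 (SE 0.12, edgeR adjusted p = 0.37) and 0.51 (SE 0.25, edgeR adjusted p = 0.203). Flpo 4 had the lowest value of its group for Fads1, Fads2, Elovl1 and Elovl5.

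**Figure D4:**
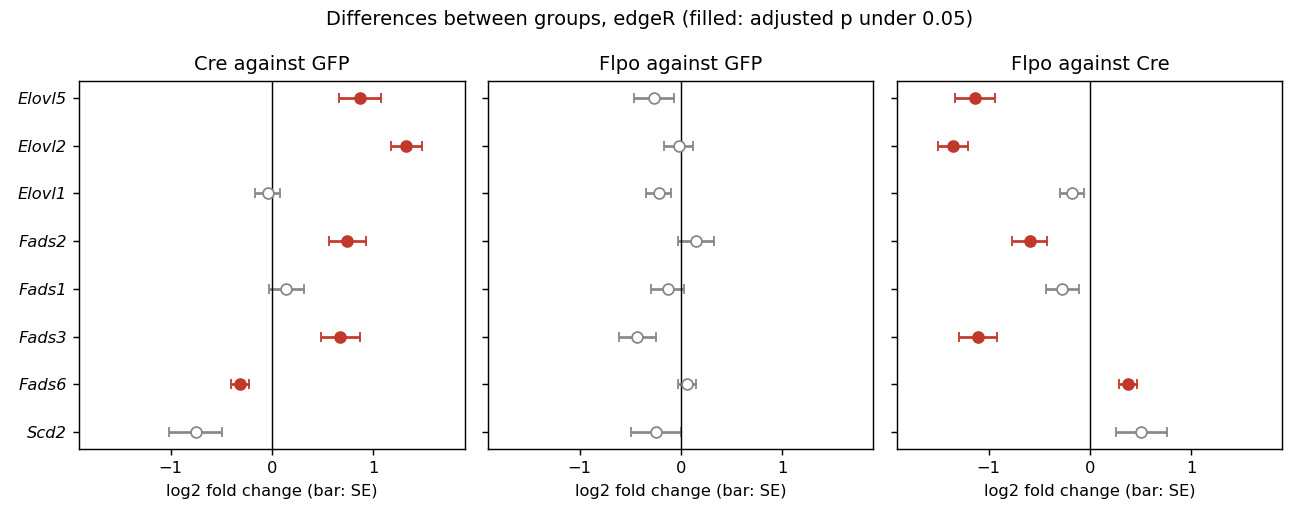
Log2 fold change with its SE (horizontal axes) of the 8 genes in the 3 comparisons; filled points passed an edgeR adjusted p of 0.05. Filled points number 5 for Cre against GFP, 0 for Flpo against GFP and 5 for Flpo against Cre.

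Some transcripts of the circadian clock also differed between Cre livers and the other groups. A clock score, the mean standardized log2 CPM of 4 genes in phase with Bmal1 minus that of 10 genes in the opposite phase such as Dbp and Per1, ran from -0.95 to 1.03 in GFP, -0.06 to 2.35 in Cre and -2.17 to -0.74 in Flpo libraries. Scores of Cre and Flpo libraries did not overlap. The genes in phase with Bmal1 summed to 15.2 to 23.2, 18.5 to 32.8 and 11.7 to 15.6 TPM (0 of 4 called in Cre against GFP, 3 of 4 lower in Flpo against Cre), and those opposite to it to 184 to 231, 95.6 to 228 and 226 to 282 TPM (3 of 10 lower, then 7 higher and 1 lower). Flpo against GFP had 0 of the 4 and 0 of the 10 called. Npas2 was at 0 in some library. With this score as a covariate, the number of the 8 genes called in Cre against GFP was 2 instead of 5, and 252 instead of 1328 of all genes. Elovl2 (1.39, edgeR adjusted p = 0.000675) and Fads2 (0.90, edgeR adjusted p = 0.0472) were still called, while Elovl5 (0.75, edgeR adjusted p = 0.146), Fads3 (0.66, edgeR adjusted p = 0.219) and Fads6 (-0.34, edgeR adjusted p = 0.183) were not. In Flpo against Cre, 1 of the 8 was called with the covariate, Elovl2 (-1.49, edgeR adjusted p = 0.0387), and 11 of all genes. The log2 fold changes of the genes no longer called were -0.86 for Elovl5, -0.92 for Fads2, -1.07 for Fads3 and 0.41 for Fads6.

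Sex-biased liver genes differed between Cre livers and the other groups too. Of 10 male-biased genes, a list that includes Elovl3, 9 were higher in Cre than in GFP livers and 8 lower in Flpo than in Cre, with summed levels of 3337 to 10872, 13746 to 25477 and 4087 to 18633 TPM in GFP, Cre and Flpo. Of the 7 female-biased genes tested, 4 were lower in Cre than in GFP and 4 higher in Flpo than in Cre (summed over 10 genes, 102 to 339, 9.70 to 83.6 and 118 to 384 TPM), with Cyp2b13, Cyp3a41a, Cyp3a44 and Sult3a1 among those at 0 in some library. Stellate cell markers were lower in Cre for 4 of 12 genes and higher in Flpo than in Cre for 5 of 12. Their sums were 112 to 177, 66.8 to 127 and 142 to 201 TPM, with no marker at 0. Flpo against GFP had 0 of the 10 male-biased, 0 of the 7 female-biased and 0 of the 12 stellate genes called. Kupffer cell and macrophage markers had 0 of 12 called in each comparison, at 131 to 219.5, 112 to 157 and 115 to 284 TPM, and endothelial markers 1 of 10 higher in Cre than in GFP. The part of these differences in the results for the 8 genes was not tested. The covariate fit cannot settle the part of the clock score, because the score follows the groups, with no overlap between Cre and Flpo libraries.

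Within groups, the genes of the polyunsaturated chain varied together from library to library. After group means were subtracted from log2 CPM over the 16 libraries, correlations were taken for the 28 pairs of genes. Of these, 8 passed an adjusted permutation p of 0.05 for Pearson's r, all positive, and 4 of them also for Spearman's rho. The share of passing pairs among all genes tested was not computed, so 8 of 28 describes these genes without a background. Fads1 and Fads2, neighbours on chromosome 19, gave r = 0.94 (permutation p = 4e-05, adjusted 0.00112) and rho = 0.76 (permutation p = 0.0026, adjusted 0.0243), with r = 0.86 without the 2 farthest libraries. Elovl2 and Elovl5 gave r = 0.86 (permutation p = 0.00027, adjusted 0.00189) and rho = 0.84 (permutation p = 0.00052, adjusted 0.0146), with r = 0.91 without the 2 farthest libraries.

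Elovl2 also varied with Fads1 (r = 0.72, rho = 0.77; adjusted permutation p = 0.00189 and 0.0202) and with Fads2 (r = 0.72, rho = 0.73; 0.00896 and 0.0267). The pairs passing by Pearson's r alone were Elovl5 with Fads1 (0.79) and Fads2 (0.73) and Elovl1 with Fads1 (0.76) and Fads2 (0.74). The Elovl1 pairs rested partly on the extreme libraries, with r = 0.46 and 0.48 without the 2 farthest. Without Flpo 4, which was low for several of these genes, 5 pairs passed instead of 8. No pair with Fads3, Fads6 or Scd2 passed.

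The genes whose deviations were most like those of each of the 8 were ranked among 11782 genes by the same correlation, as a description over 16 libraries. For Elovl1 they were Dhcr7 (0.92), Fdps (0.90) and Mvk (0.88), for Elovl2 Lipa (0.90), Ugt1a5 (0.87) and Chmp2b (0.85), and for Elovl5 Chmp2b (0.84), Sel1l3 (0.84) and Agtr1a (0.84). Fads1 was most like Dhcr7 (0.89), Camk2n2 (0.86) and Arhgef16 (0.86), and Fads2 was most like Arhgef16 (0.89), Dhcr7 (0.85) and Camk2n2 (0.85), so that all 3 genes nearest to Fads1 were also nearest to Fads2. For Fads3 the nearest were Dnajc24 (0.79), Atxn3 (0.79) and Pnpla8 (0.77), for Fads6 Aph1c (0.87), Brap (0.86) and Nsmce2 (0.85), and for Scd2 Gsta1 (0.88), Gabra3 (0.86) and Creb3l1 (0.83).

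Of 91 other listed genes of the pathway and its surroundings, 77 were tested. In Cre against GFP, 13 of them were called, 6 higher and 7 lower. That was 16.9% of the 77, where 9.55% of all genes tested were called. The median log2 fold change of the 77 was 0.03. The split depended on scaling, with 3 higher and 11 lower under library totals alone and 2 higher and 12 lower under log2(TPM + 1), which moved the median of all genes from 0.00 to -0.14 and -0.12. The 8 genes described split into 3 higher and 2 lower under library totals and 2 higher and 2 lower under log2(TPM + 1).

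Among 5 other elongases and desaturases tested, Elovl3, which extends saturated and monounsaturated chains, was higher in Cre livers at 1.89 (edgeR adjusted p = 0.0003), from 103 ± 22.7 to 380.3 ± 85.2 CPM (mean ± SD, n = 5 each). Scd1 was lower at -1.77 (edgeR adjusted p = 0.0299), from 3643 ± 1639.5 to 1065 ± 782 CPM. Elovl6, which lengthens palmitate, was not called at 0.38 (edgeR adjusted p = 0.192). The 6 partner enzymes of the elongation cycle tested, among them Hsd17b12 and Tecr, had 0 called, and 1 of 5 electron donors was lower, the cytochrome b5 reductase Cyb5r3 at -0.48 (edgeR adjusted p = 0.00755).

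In peroxisomal chain shortening, the step that trims the final intermediate to docosahexaenoic acid, 1 of 10 genes was higher and 1 lower. The higher gene was the bifunctional enzyme Ehhadh at 1.81 (edgeR adjusted p = 0.000677), and the lower gene is not reported here by name. Of 12 activation and remodelling genes, 1 was higher, Acsl4, an acyl-CoA synthetase that prefers arachidonic acid, at 0.79 (edgeR adjusted p = 0.0104), from 28.2 ± 4.95 to 48.6 ± 16.5 CPM. Of 14 release and oxygenation genes, the epoxide hydrolase Ephx2 was higher at 0.34 (edgeR adjusted p = 0.0391) and the lysosomal phospholipase Pla2g15 lower at -0.42 (edgeR adjusted p = 0.042).

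Among 15 regulators, 2 were higher and 1 lower. The higher genes were Scap, which escorts SREBP precursors, at 0.37 (edgeR adjusted p = 0.0268) and Insig2, which retains them, at 0.80 (edgeR adjusted p = 0.032), and Pparg was lower at -1.35 (edgeR adjusted p = 0.000223). Srebf1, which encodes the SREBP1 factor known to act on the desaturases, was not called at -0.32 (edgeR adjusted p = 0.478), nor were Insig1 at 0.03 (edgeR adjusted p = 0.959) and Ppara at 0.40 (edgeR adjusted p = 0.162). Of 10 lipogenic SREBP1 targets, 2 were lower, Thrsp at -3.31 (edgeR adjusted p = 0.00181) and the acetoacetyl-CoA synthetase Aacs at -1.51 (edgeR adjusted p = 0.0283).

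In Flpo against GFP, 0 of the 77 genes were called by edgeR, DESeq2 or limma-voom, and 6 had an unadjusted edgeR p below 0.05, a share below the 9.73% of all genes tested. Elovl3, Scd1, Srebf1, Insig1, Ppara and Elovl6 were at -0.10, -0.07, 0.10, -0.26, 0.22 and 0.34 on the log2 scale. In Flpo against Cre, 7 were higher and 7 lower (14 and 4 under library totals, 17 and 3 under log2(TPM + 1)). The edgeR calls made up 18.2% of the 77, where 13.7% of all genes tested were called. The higher genes included Thrsp (4.33), Aacs (2.25), Scd1 (1.71), Pparg (1.30), Hpgd (0.97), which degrades prostaglandins, and Cyb5r3 (0.53). The lower genes were Elovl3 (-1.99), Ehhadh (-1.88), Insig2 (-1.33), Cyb5r1 (-0.53), Scap (-0.47), Ephx2 (-0.40) and Acsl5 (-0.30). With the clock score as a covariate, 5 of 77 were called in Cre against GFP and 0 in Flpo against Cre.

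**Figure D5:**
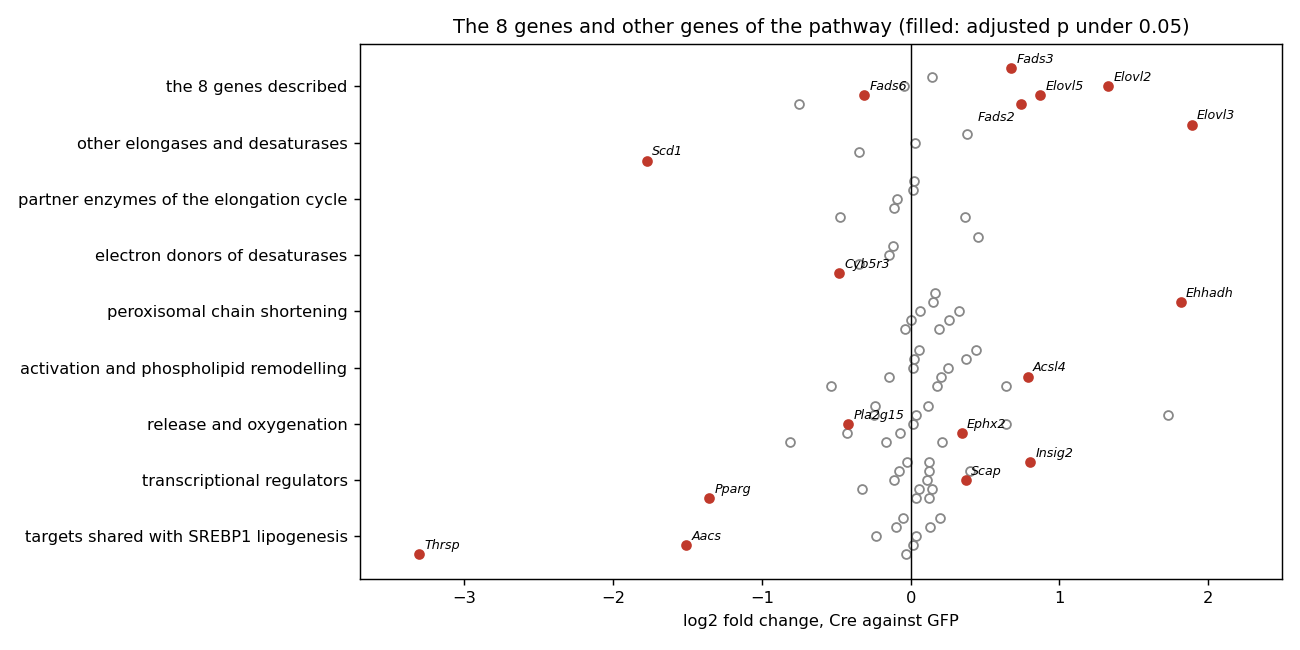
Log2 fold change of Cre against GFP (horizontal axis) for genes of the 8 described and of 8 further lists (rows); filled, named points passed an edgeR adjusted p of 0.05 and open points did not. The 8 genes have 5 filled points, of which 4 lie to the right of 0, while the filled points of the other lists lie on both sides of 0.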

How the data were processed

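Polyadenylated RNA from mouse liver was sequenced as read pairs on a NovaSeq6000, per the labels' protocols. The submitters' processing notes name cutadapt, STAR and the build mm10, with no versions; what annotation and counting program were used is not given in the sources used here. Values in the authors' count table are estimated counts, 31.7% of them not whole (beyond a tolerance of 1e-06), and a matching deposited table holds TPM. In the 10835 genes with over 20 counts in every library, TPM equalled the count times a gene factor and a library factor (largest deviation 1.07e-09 in log2); the other rows were not compared.

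Estimated counts were rounded and tested with edgeR 4.0.16 (R 4.3.3; quasi-likelihood, robust, TMM scaling, filterByExpr with a minimum count of 10), with 16 libraries in 1 fit, 3 comparisons, and Benjamini-Hochberg adjustment over 13905 genes. The 95% intervals use the fit's SE and total degrees of freedom. TPM ratios were tested by exact permutation, and pairs of genes with 100000 permutations within groups. The genes named were the 8 genes, called genes of the pathway lists (at most 6 per list), 8 fixed genes (Elovl3, Elovl6, Scd1, Srebf1, Insig1, Insig2, Ppara, Pparg) and the 3 genes most like each of the 8. The genes, lists and tests were chosen with earlier results of these data known. Alternatives were DESeq2 1.42.0, limma 3.58.1 (voom, or log2(TPM + 1) and log2(TPM + 0.1)), other scalings and filters, 2 groups only, a clock covariate, a replicate block, stricter thresholds and each library left out. The edgeR scripts were tested on simulated data first. Some list genes are not reported here by name. Sequences and motif positions are from RefSeq and gene positions from GENCODE M21.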

Additional observations from a re-analysis of the deposited data

Results flagged for a closer look

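Among 33 groups of values checked for a library far from the rest (8 genes and 3 ratios in 3 groups), 1 stood out, where chance alone marks about 1 in 20. The Fads2 to Fads1 TPM ratio of GFP 4 was 2.10, against 1.78 in the next highest GFP library, a gap of 0.803 of the group's range. Without GFP 4, the Fads2 to Fads1 difference was 0.66 log2 units for Cre minus GFP and 0.34 for Flpo minus GFP.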

How the results depend on the processing

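Of the 8 genes, 5 were called in Cre against GFP, and this number was 3 with no low-count filter, 3 when only the 2 groups were fitted, 2 with the clock covariate, 1 at an adjusted p of 0.01, and from 3 to 6 with a library left out (3 without GFP 1, GFP 4 or Cre 2). In Flpo against Cre the 5 became 1 with the clock covariate, and 4 to 5 with a library left out. In Flpo against GFP it was 0 under every alternative run. The 13 pathway genes of Cre against GFP became 8 with no filter, 5 with the clock covariate, 6 at 0.01, and 8 to 15 with a library left out (8 without GFP 3 or GFP 5); the 14 of Flpo against Cre became 0 with the covariate, 9 at a fold of at least 1.5, and 11 to 16 with a library left out.

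Over all genes, the 1328 calls of Cre against GFP were 834 with 2 groups only, 2127 with log2(TPM + 1) (218 higher, 1909 lower), 2206 with log2(TPM + 0.1), 252 with the clock covariate, 475 at 0.01, 822 at 1.5-fold and 960 to 1462 with a library left out; library totals gave 300 higher and 1656 lower. The 4 calls of Flpo against GFP were 72 with DESeq2, 0 with limma-voom, the clock covariate and 0.01, 1 with 2 groups only or log2(TPM + 1), 2 with log2(TPM + 0.1), and 0 to 15 with a library left out. The 1906 calls of Flpo against Cre were 11 with the covariate, 881 at 0.01, 1118 at 1.5-fold and 1454 to 2189 with a library left out.

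With TPM + 1 the Scd2 to Scd1 difference of Cre minus GFP was 1.80 (exact permutation, adjusted p = 0.0357). Scd2 itself ran from 0.169 TPM (Cre 3) to 1.03 TPM (GFP 1) in those groups. The added 1 was thus about as large as Scd2 or larger, so that value says little about Scd2. With a library left out, Elovl5 to Elovl2 ran from -0.50 to -0.36 for Cre minus GFP and -0.31 to -0.16 for Flpo minus GFP, Scd2 to Scd1 from -1.60 to -1.05 for Flpo minus Cre, and the pairs that passed from 5 to 9. Signs turned only for differences that were not called. Elovl1 in Cre against GFP was 0.12 with the clock covariate and ran from -0.098 to 0.011 with a library left out (positive without Cre 3). Fads1 was -0.0021 with library totals and -0.043 with either TPM scale. Elovl2 in Flpo against GFP was 0.036 with the block, 0.0099 with log2(TPM + 1), 0.010 with log2(TPM + 0.1), and from -0.11 to 0.050 with a library left out (positive without GFP 1, GFP 2, GFP 4, Flpo 4 or Flpo 6). Fads2 in Flpo against GFP was -0.028 with the covariate, and Elovl1 in Flpo against Cre was 0.018 with either TPM scale.

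Replicate numbers did not pair the libraries: same-numbered libraries correlated from -0.16 to 0.12, with 1 of 15 pairs over 0.1. A replicate block without Flpo 6 gave 4 called genes of the 8 in Cre against GFP (Fads6 at -0.30, edgeR adjusted p = 0.1), 4 in Flpo against Cre (Fads2 at -0.59, adjusted p = 0.0854) and 0 calls over all genes in Flpo against GFP. Fads3 and Scd2 rest on the fewest counts of the 8 genes, at a few CPM. The cause of each change was not tested.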
